A study of Mus musculus with 4 samples.

Results

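Keratins are the intermediate filament proteins of epithelial cells. A filament is built from pairs of a type I and a type II keratin, and the pair that a cell uses marks its place in the mammary gland: Krt8 (type II) and Krt18 (type I) pair in luminal cells, which line the ducts and make milk, and Krt5 (type II) and Krt14 (type I) pair in the basal layer of contractile myoepithelial cells. Krt7 and Krt19 accompany the luminal pair, and Krt15 and Krt17 belong to basal layers of several epithelia. The 10 keratins described here were chosen by name, 4 of them basal (Krt5, Krt14, Krt15 and Krt17), 4 luminal (Krt7, Krt8, Krt18 and Krt19), together with Krt6a, a keratin of wounds and of mammary progenitors, and Krt23, a less studied type I keratin. All 10 were found among the 33677 gene names of the table, 6 of type I and 4 of type II.

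The libraries came from PyMT-A, a mammary tumour cell line of the mouse strain FVB/NJ, whose name refers to the polyoma middle T oncogene. Jagged1 cells had been infected with the PMSCV-Jagged1 virus, which carries a ligand of Notch receptors, and vector cells with the PMSCV-puro virus, with 2 libraries each. Both are cultured derivatives of 1 tumour line grown in DMEM with serum, and the labels do not say whether infected cells were pooled or cloned. Messenger RNA was sequenced and counted per gene, and the series title places the cells in a study of how JAGGED1 affects macrophages and T cells in tumours.

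Total counts were between 12136227 and 20835208 per library. Jag1, the transduced gene, had 5676 and 4493 reads in Jagged1 cells and 159 and 112 reads in vector cells, as labelled. Levels below are CPM, reads scaled to a common library size by the TMM method, and 3 reads, the floor used for low genes, were worth 0.145 to 0.244 CPM. In log2 CPM the first principal component, with 51.6% of the variance, separated the libraries numbered 1 (25.9 for Jagged1 and 31.1 for vector) from those numbered 2 (-39.98 and -17.1), so comparisons within a number stand beside the pooled ones. No label ties libraries of 1 number to a shared culture or day, or calls replicates separate cultures, so the spread behind each p-value may be only technical. In Jagged1 2 the fibroblast list summed to 69.9 CPM, against 10.7 CPM in Jagged1 1 and 4.63 and 7.25 CPM in the vector libraries, with Col1a2 at 20.2 CPM in Jagged1 2 and at 0 in the other libraries. Values of the main keratins and of most ratios, but not all, are also given without that library.

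The data turned on 4 genes: Krt7, Krt8, Krt18 and Krt14. Since Krt14 carried nearly all basal reads, its closest copies are shown first. Of the 1649 different runs of 50 bases in its principal transcript (GENCODE M21, GRCm38), 237 occur also in transcripts of other genes, 188 of them in Krt16 and 55 in Krt17, the neighbouring type I genes of wounds and hair. The stretch below is coding sequence, bases 336 to 425 of Krt14 counted from the A of the start codon, with the aligned bases of both copies, and capitals mark bases that differ from Krt14.
Krt14: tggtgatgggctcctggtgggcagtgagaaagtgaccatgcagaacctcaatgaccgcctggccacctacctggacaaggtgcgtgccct
Krt16: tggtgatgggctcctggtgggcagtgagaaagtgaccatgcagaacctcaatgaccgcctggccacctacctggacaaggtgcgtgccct
Krt17: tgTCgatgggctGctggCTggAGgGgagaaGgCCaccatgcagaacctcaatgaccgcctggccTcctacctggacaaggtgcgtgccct
Within these bases Krt16 has 0 differences and Krt17 has 12; over the whole aligned coding sequence they match Krt14 at 85.5% and 82.0% of bases. Reads wholly inside such stretches cannot be assigned to 1 gene, and 14.4% of the Krt14 runs are shared. How such reads were counted is not stated in the labels, so the level of Krt14 is uncertain by them. The copies had few reads: Krt16 had 41 and 12 in Jagged1 cells and 49 and 22 in vector cells. Krt17 had 5 and 0 reads in Jagged1 cells and 0 and 2 in vector cells.

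The other abundant keratins differ in this respect. Krt7 and Krt18 share 0.22% and 0.72% of their runs with other genes. Krt8 shares 29.7%, mostly with Krt8-ps, a processed copy on chromosome 7 that matches it at 98.6% of an alignment with 941 paired bases and had 75 and 55 reads in Jagged1 cells and 58 and 45 in vector cells. How reads matching both were counted is not stated in the labels, so the level of Krt8 is uncertain by the reads in that stretch. For Krt6a the shared part was 62.0%, most of it with Krt6b.

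Krt7, a type II luminal keratin (chromosome 15, 101411043 to 101430313, plus strand), was the most read of the 10. It had 35804 and 14455 reads in Jagged1 cells and 37004 and 18687 reads in vector cells, that is 1733 and 1044 CPM in Jagged1 cells and 2446 and 1522 CPM in vector cells. The lines overlapped, since Jagged1 1 lay above vector 2. Mean levels were 1388 ± 487 CPM in Jagged1 cells and 1984 ± 654 CPM in vector cells (SD, n = 2 each), with a log2 fold change of -0.52 ± 0.34 (SE; edgeR adjusted p = 1). Within libraries numbered 1 the Jagged1 level was 0.708 times the vector level, and within those numbered 2 it was 0.686 times. The pooled log2 fold change was -0.93 without Jagged1 1, -0.19 without Jagged1 2, -0.11 without vector 1 and -0.82 without vector 2, and the adjusted p was above 0.05 in each.

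Krt14, the type I keratin of the basal layer (chromosome 11, 100203162 to 100207548, minus strand), stood on the opposite side. It had 15320 and 4937 reads in Jagged1 cells and 6858 and 2763 reads in vector cells, or 741 and 357 CPM in Jagged1 cells and 453 and 225 CPM in vector cells. These too overlapped, since vector 1 lay above Jagged1 2. Means were 549 ± 272 CPM in Jagged1 cells and 339 ± 161 CPM in vector cells (SD, n = 2 each), and the log2 fold change was 0.69 ± 0.46 (SE; edgeR adjusted p = 1). Within numbers 1 and 2 the Jagged1 level was 1.64 and 1.58 times the vector level. The pooled value rested on which libraries entered: it was 0.065 without Jagged1 1, 1.13 without Jagged1 2, 1.31 without vector 1 and 0.27 without vector 2, and the adjusted p was above 0.05 in each.

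Krt8 and Krt18, the luminal pair, lie 5′ to 5′ on chromosome 15 (Krt8 at 101996698 to 102004482, minus strand; Krt18 at 102028180 to 102032027, plus strand). Krt8 had 24594 and 10612 reads in Jagged1 cells and 17581 and 11427 reads in vector cells. Its level was 1190.2 and 766 CPM in Jagged1 cells and 1162 and 930.5 CPM in vector cells, a log2 fold change of -0.097 ± 0.26 (SE; edgeR adjusted p = 1), and both vector libraries lay between the Jagged1 libraries. Its sign turned to 0.19 without Jagged1 2 and 0.095 without vector 1. Krt18 had 20490 and 11320 reads in Jagged1 cells and 14111 and 10722 reads in vector cells. At 992 and 817 CPM in Jagged1 cells and 933 and 873 CPM in vector cells it was the steadiest of the 4, with means of 905 ± 123 and 903 ± 42.3 CPM in those lines (SD, n = 2 each) and a log2 fold change of 0.0025 ± 0.17 (SE; edgeR adjusted p = 1), or 0.14 without Jagged1 2.

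**Figure D1:**
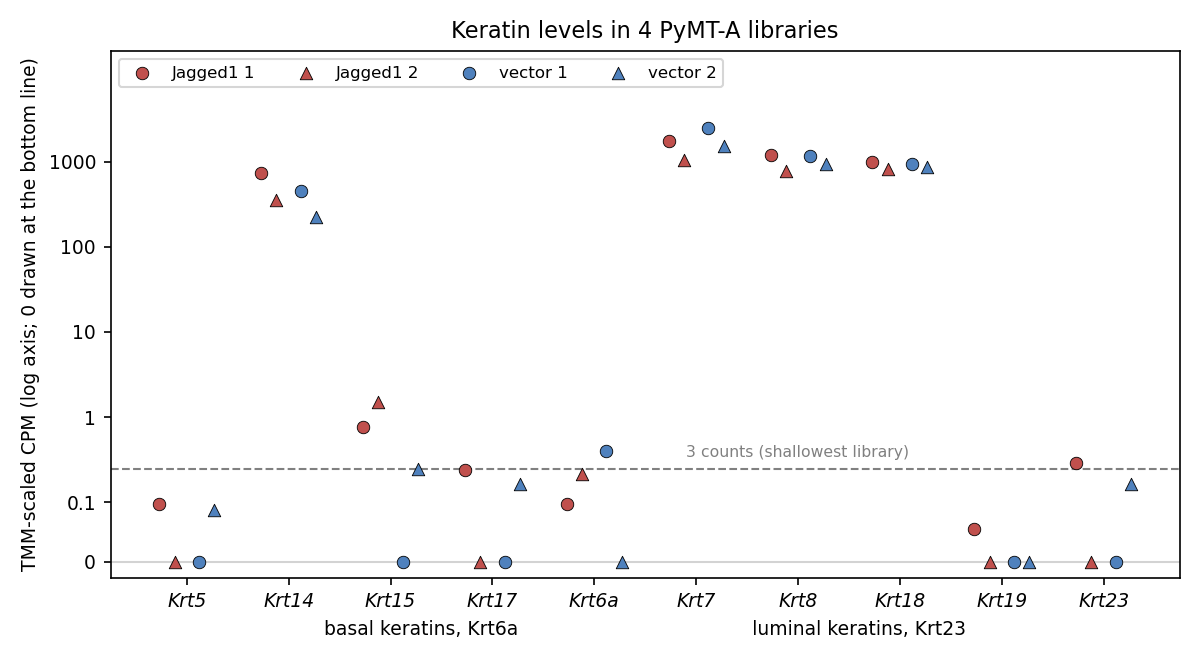
TMM-scaled CPM of the 10 keratins on a log axis, 1 point per library (red Jagged1, blue vector; circles number 1, triangles number 2), with counts of 0 drawn at the bottom line and the dashed line at 3 counts in the shallowest library. Krt14, Krt7, Krt8 and Krt18 lie between 225 and 2446 CPM, and the other 6 genes lie at or below 1.52 CPM.

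The remaining 6 keratins together had 32 and 24 reads in Jagged1 cells and 6 and 8 reads in vector cells. Krt5, the usual type II partner of Krt14, had 2 and 0 reads in Jagged1 cells and 0 and 1 in vector cells, below the floor in all 4 libraries. Krt19, which accompanies the luminal pair in the gland, had 1 and 0 reads in Jagged1 cells and 0 and 0 in vector cells. Krt6a had 2 and 3 reads in Jagged1 cells and 6 and 0 in vector cells, and Krt23 had 6 and 0 in Jagged1 cells and 0 and 2 in vector cells. Krt5, Krt17, Krt19, Krt6a and Krt23 did not pass the filter on low counts and were not tested in edgeR. Both lines thus held much Krt14 with Krt5 at or near 0, and Krt7, Krt8 and Krt18 with Krt19 at or near 0.

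Krt15, a type I keratin of basal and hair follicle cells (chromosome 11, 100131758 to 100135928, minus strand), had 16 and 21 reads in Jagged1 cells and 0 and 3 reads in vector cells. At 0.774 and 1.52 CPM in Jagged1 cells and 0 and 0.244 CPM in vector cells the lines did not overlap, Jagged1 being higher, as in 13.9% of all tested genes. The ratio of the summed counts, 37 against 3, was 9.79, with a 95% interval from counting error alone of 3.10 to 49.7. All 3 vector reads came from vector 2, and within number 2 the Jagged1 level was 6.21 times the vector level. The fitted log2 fold change was 3.24 ± 1.09 (SE), and it was 3.66 without Jagged1 1, 2.71 without Jagged1 2, 2.20 without vector 1 and 7.23 without vector 2, where the remaining vector library is at 0 and the value is no bound. Krt15 passed the filter on low counts through the Jagged1 libraries alone, so its difference was in part a condition of its being tested. Its unadjusted p was 0.028 and its adjusted p 1 (edgeR).

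Of the 10 keratins, 5 were tested and 0 were called in edgeR at an adjusted p under 0.05, against 0.00752% of all 13299 tested genes, which was Jag1 alone. At an unadjusted p under 0.05 stood 1 of the 5, Krt15, against 3.96% of all tested genes. Since Krt15 passed the filter through the Jagged1 libraries alone, this count is not read as an excess among the keratins. DESeq2 called 0 of the 10, 5 of which had an adjusted p, against 0.324% of the genes with one, and limma-voom called 0 of 5 against 0.00752%. With all libraries in 1 fit, therefore, none of the 5 tested keratins passed the adjusted threshold, and the 4 abundant ones overlapped between the lines. Each line holds 1 library of each number, so the spread within a line is also the difference between numbers. Krt14 was 2.08 times higher in Jagged1 1 than in Jagged1 2 and 2.02 times higher in vector 1 than in vector 2, and Krt7 was 1.66 and 1.61 times higher. For Krt8 these ratios were 1.55 and 1.25, and for Krt18 they were 1.21 and 1.07, while Krt15 in Jagged1 1 was 0.511 times its level in Jagged1 2. Each of the 4 abundant keratins had both libraries numbered 1 above both numbered 2, as did 26.0% of all tested genes.

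**Figure D2:**
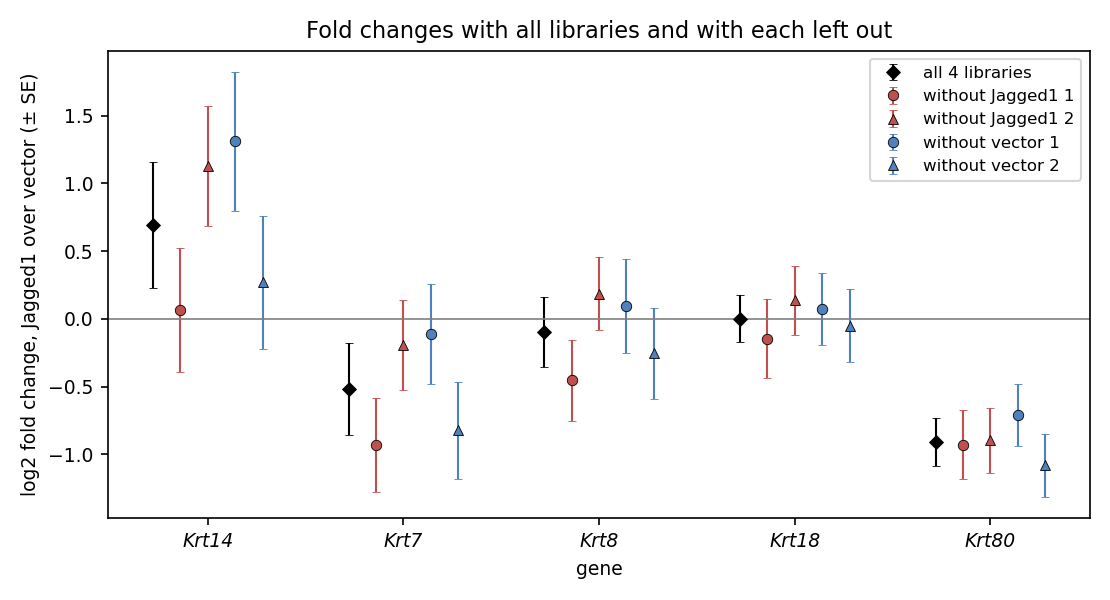
Log2 fold changes of Jagged1 over vector (vertical axis, error bars SE from edgeR) for 5 keratins, with all 4 libraries (black diamonds) and with each library left out (coloured symbols). Krt14 ranges from 0.065 to 1.31, Krt8 and Krt18 lie on both sides of 0, and Krt80 lies between -1.08 and -0.71.

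The balance between keratins within a library needs no scaling between libraries. The summed basal counts (Krt5, Krt14, Krt15 and Krt17) were 15343 and 4958 in Jagged1 cells and 6858 and 2769 in vector cells, and the summed luminal counts (Krt7, Krt8, Krt18 and Krt19) were 80889 and 36387 in Jagged1 cells and 68696 and 40836 in vector cells. For every 100 luminal reads there were thus 18.97 and 13.6 basal reads in Jagged1 cells and 9.98 and 6.78 basal reads in vector cells. The lines did not overlap, with Jagged1 the higher, and Krt14 made up between 99.6% and 100% of the basal reads, so the ratio is in effect Krt14 over the luminal sum.

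The mean log2 ratio was -2.64 ± 0.34 in Jagged1 cells and -3.60 ± 0.39 in vector cells (SD, n = 2 each), a difference of 0.97, or 1.95-fold. Within number 1 the difference was 1.90-fold and within number 2 it was 2.01-fold. An exact two-sided permutation test gave p = 0.333, the smallest that 2 libraries against 2 allow, so no threshold of 0.05 could be reached. The difference was 0.73 on the log2 scale without Jagged1 1, 1.21 without Jagged1 2, 1.25 without vector 1 and 0.69 without vector 2. With Krt5 and Krt14 over Krt8 and Krt18 alone there were 34.0 and 22.5 basal reads per 100 luminal reads in Jagged1 cells and 21.6 and 12.5 in vector cells, a 1.68-fold difference, and 22.5 in Jagged1 2 was close to 21.6 in vector 1.

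Krt14 over Krt7 was 0.428 and 0.342 in Jagged1 cells and 0.185 and 0.148 in vector cells, 2.31-fold higher in Jagged1 cells when averaged and 2.31-fold within each number (exact two-sided permutation p = 0.333, the smallest possible). On the log2 scale the difference was 1.21, and 1.37 without Jagged1 2. The pairs of single keratins were picked after their values were seen. Krt14 over Krt18 overlapped between the lines, at 0.748 and 0.436 in Jagged1 cells and 0.486 and 0.258 in vector cells. Its log2 difference was 0.69, and 1.08 without Jagged1 2. Krt7 over Krt8 was 1.46 and 1.36 in Jagged1 cells and 2.10 and 1.64 in vector cells, lower in both Jagged1 libraries, with a log2 difference of -0.40, and -0.35 without Jagged1 2. Against Krt18, Krt7 overlapped between the lines, at 1.75 and 1.28 in Jagged1 cells and 2.62 and 1.74 in vector cells. Krt8 over Krt18 was 1.20 and 0.937 in Jagged1 cells and 1.25 and 1.07 in vector cells and overlapped too. The log2 difference of Krt8 over Krt18 was -0.12, and its sign turned to 0.059 without Jagged1 2. Within numbers 1 and 2 this last ratio in Jagged1 cells was 0.963 and 0.88 times that in vector cells.

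**Figure D3:**
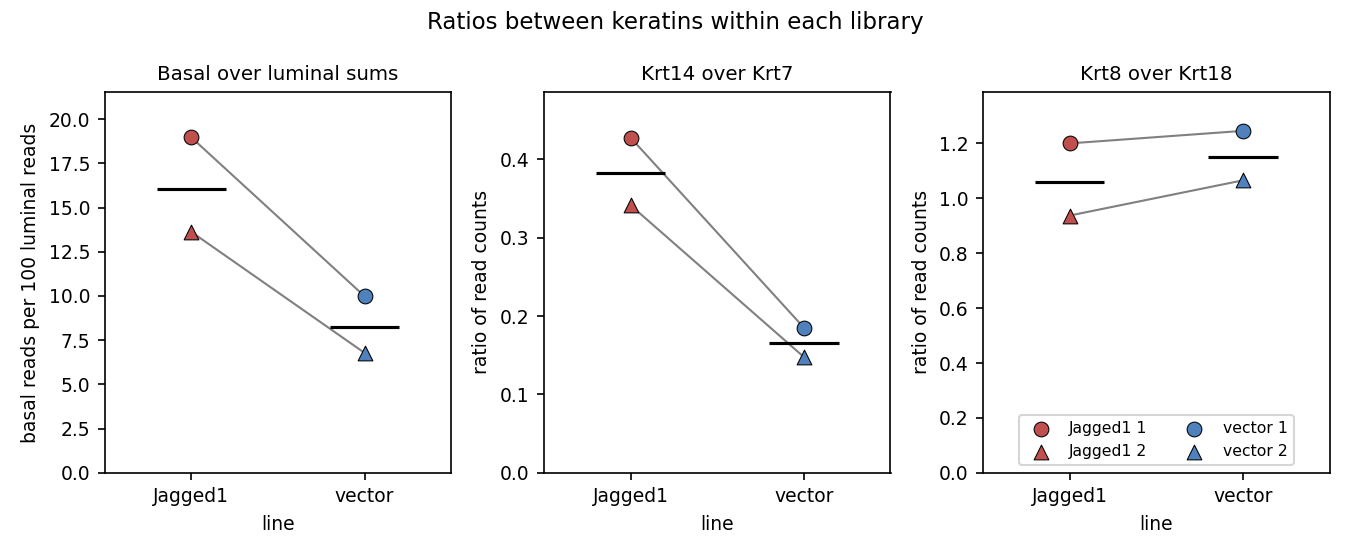
Ratios of read counts within each library: basal reads per 100 luminal reads, Krt14 over Krt7, and Krt8 over Krt18 (circles number 1, triangles number 2, grey lines join libraries of 1 number, black bars are geometric means of 2 libraries). The first panel runs from 18.97 in Jagged1 1 to 6.78 in vector 2 and the second from 0.428 to 0.148 without overlap of the lines, and the third overlaps.

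All 10 keratins together took 0.462% and 0.305% of the counts in Jagged1 libraries and 0.484% and 0.359% in vector libraries. The total thus overlapped between the lines, while the shares of Krt14 and Krt7 within it did not. Krt14 was 15.9% of these reads in Jagged1 1 (exact 95% binomial interval 15.7 to 16.2%) and 11.9% in Jagged1 2 (11.6 to 12.3%), against 9.08% in vector 1 (8.87 to 9.28%) and 6.34% in vector 2 (6.11 to 6.57%). Krt7 was 37.2% and 34.96% in Jagged1 cells and 48.97% and 42.9% in vector cells. Krt8 and Krt18 overlapped between the lines, with Krt8 at 25.6% and 25.7% in Jagged1 cells and 23.3% and 26.2% in vector cells, and Krt18 at 21.3% and 27.4% in Jagged1 cells and 18.7% and 24.6% in vector cells. Intervals cover counting error only. In bulk RNA, fewer cells with a keratin and less of its RNA per cell cannot be told apart.

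**Figure D4:**
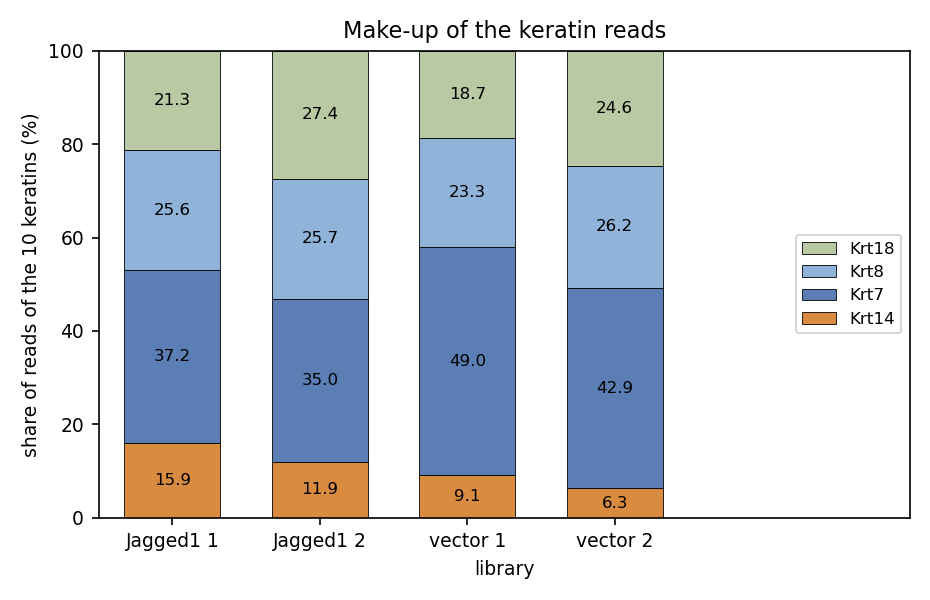
Share of the reads of the 10 keratins taken by Krt14, Krt7, Krt8 and Krt18 in each library (stacked bars, percent; the other 6 genes are too small to see). Krt14 takes 15.9 and 11.9% in Jagged1 libraries and 9.08 and 6.34% in vector libraries, and Krt7 takes 37.2 and 34.96% in Jagged1 libraries and 48.97 and 42.9% in vector libraries.

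Levels of different genes can be compared only per length. In CPM per kilobase of principal transcript, Krt18 was highest in all 4 libraries, at 690.03 and 569 in Jagged1 cells and 649 and 608 in vector cells. Krt8 had 608 and 391 in Jagged1 cells and 594 and 475 in vector cells, and Krt7 had 423 and 255 in Jagged1 cells and 598 and 372 in vector cells. Krt14 had 437 and 209.96 in Jagged1 cells and 267 and 133 in vector cells. The order of Krt7, however, hung on its length: its principal transcript is 4094 bases long, of which 1371 are coding, and in CPM per kilobase of coding length it was highest in all 4 libraries, at 1264 and 761 in Jagged1 cells and 1784 and 1110 in vector cells. Krt14 was lowest of the 4 in every library on the coding scale, at 511 and 246 in Jagged1 cells and 312 and 155 in vector cells, and in all libraries but Jagged1 1 on the transcript scale.

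Since type I and type II keratins assemble together, their sums per kilobase of transcript were also set against each other. Type II over type I was 0.915 and 0.829 in Jagged1 cells and 1.30 and 1.14 in vector cells, 0.714-fold in Jagged1 cells over vector cells, with 0.703-fold within number 1 and 0.725-fold within number 2. The log2 difference was -0.49, and -0.42 without Jagged1 2. Per kilobase of coding length the ratio was 1.604 and 1.44 in Jagged1 cells and 2.46 and 2.07 in vector cells, so its distance from 1 depended on the length used, while Jagged1 was the lower line, without overlap, on either scale (exact two-sided permutation p = 0.333 on both, the smallest possible). The ratio was formed after the values were seen. It is in effect Krt7 and Krt8 over Krt14 and Krt18, so it is not independent of Krt14 over Krt7.

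Of 44 other keratin genes listed for comparison, 34 were in the table, 21 of them at 0 in all libraries. In edgeR 6 were tested and 0 called, with 1 at an unadjusted p under 0.05, against 3.96% of all tested genes. Krt80, a type II keratin, was by far the most read. It had 918 and 604 reads in Jagged1 cells and 1400 and 897 in vector cells, or 44.4 and 43.6 CPM in Jagged1 cells and 92.6 and 73.04 CPM in vector cells. Jagged1 was lower without overlap, as in 15.1% of all tested genes, and the log2 fold change was -0.91 ± 0.18 (SE; edgeR adjusted p = 0.894). Without the filter on low counts its adjusted p was 0.0047, a call shared by 0.686% of the genes in that fit, and over all 11 alternatives the fold change lay between -1.08 and -0.71. Krt10, a type I keratin of the upper epidermis, was at 2.52 and 2.53 CPM in Jagged1 cells and 1.92 and 1.30 CPM in vector cells, and Krt16 at 1.98 and 0.867 CPM in Jagged1 cells and 3.24 and 1.79 CPM in vector cells.

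Among 16 other intermediate filament genes, 7 were tested, 3 with positive and 4 with negative fold changes, and 0 were called; the median log2 fold change was -0.009, against -0.0025 over all tested genes, and 0.21 without Jagged1 2. The lamin genes Lmna (837 and 556 CPM in Jagged1 cells, 873 and 668 CPM in vector cells) and Lmnb1 (295 and 211 CPM in Jagged1 cells, 284 and 225 CPM in vector cells) overlapped between the lines. Vim, which encodes vimentin, the filament protein of mesenchymal cells, was at 333 and 99.5 CPM in Jagged1 cells and 95.3 and 99.3 CPM in vector cells. Jagged1 1, the library with the highest Krt14, stood above the other 3, which were alike. The log2 fold change of Vim was 1.15 ± 0.54 (SE; edgeR adjusted p = 1). With Jagged1 1 as the only Jagged1 library this value rose to 1.78, and with Jagged1 2 as the only one it fell to 0.032, so the difference rested on Jagged1 1.

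Keratins are anchored at desmosomes and hemidesmosomes. Of 24 genes for this anchorage 21 were tested, 6 with positive and 15 with negative fold changes, 0 were called and the median log2 fold change was -0.043, or 0.052 without vector 1. Itgb4, the integrin chain that holds keratins at the basement membrane, had 1113 and 1334 CPM in Jagged1 cells and 1184 and 1288 CPM in vector cells. Dsp, the desmosomal plakin that binds keratins directly, had 429 and 431 CPM in Jagged1 cells and 466 and 381 CPM in vector cells, and Macf1, a spectraplakin, had 422 and 360 CPM in Jagged1 cells and 403 and 354 CPM in vector cells. All 3 overlapped between the lines.

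Of 24 luminal markers 17 were tested, 12 with positive and 5 with negative fold changes, and 0 were called. At an unadjusted p under 0.05 (edgeR) stood 3 of the 17, against 3.96% of all tested genes. The median log2 fold change was 0.37, against -0.0025 over all tested genes, and it was -0.053 without Jagged1 2. Epcam, an epithelial adhesion gene, had 965 and 954 CPM in Jagged1 cells and 921 and 836 CPM in vector cells. Cdh1, the gene of E-cadherin, had 562 and 594 CPM in Jagged1 cells and 562 and 557 CPM in vector cells. Cd24a had 567 and 459 CPM in Jagged1 cells and 378 and 415 CPM in vector cells. Log2 fold changes were 0.13 ± 0.16 for Epcam, 0.047 ± 0.15 for Cdh1 and 0.37 ± 0.18 for Cd24a (SE). Of 16 basal markers 8 were tested, 3 with positive and 5 with negative fold changes, with 0 called and a median of -0.27, which was 0.45 without Jagged1 2 and 0.37 without vector 1.

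The basal list was thus uneven beside the Krt14 values. Lgr6, a receptor gene, led the list at 208 and 129.8 CPM in Jagged1 cells and 157 and 120.5 CPM in vector cells. Trp63, the transcription factor that defines basal cells, had 7.21 and 19.7 CPM in Jagged1 cells and 5.88 and 7.57 CPM in vector cells, highest in Jagged1 2 where Krt14 was not. Id4 had 21.1 and 2.74 CPM in Jagged1 cells and 24.1 and 5.37 CPM in vector cells. Acta2, the actin of contractile myoepithelial cells, was at or near the floor, with 1 and 6 reads in Jagged1 cells and 4 and 2 in vector cells.

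Lists of other cell types were low, except the fibroblast list in Jagged1 2, which summed to 69.9 CPM. Leukocyte markers summed to 1.79 and 4.69 CPM in Jagged1 cells and 1.72 and 4.72 CPM in vector cells, led by Csf1r, Cd68 and Adgre1. Csf1r had 32 and 23 reads in Jagged1 cells and 10 and 16 in vector cells, Cd68 had 3 and 22 in Jagged1 cells and 15 and 32 in vector cells, and Adgre1 had 0 and 16 in Jagged1 cells and 0 and 6 in vector cells. Ptprc, which marks leukocytes at large, had at most 1 read in each library. Endothelial markers summed to 0.581 and 6.35 CPM in Jagged1 cells and 0.793 and 2.93 CPM in vector cells. Most of this was Cdh5, with 10 and 84 reads in Jagged1 cells and 6 and 32 in vector cells, while Kdr had 2 and 3 in Jagged1 cells and 0 and 1 in vector cells and Pecam1 had 0 and 0 in Jagged1 cells and 4 and 1 in vector cells. Squamous markers summed to 5.08 and 8.38 CPM in Jagged1 cells and 13.4 and 7.65 CPM in vector cells. Beside Krt10 they were led by Tgm1, with 45 and 70 reads in Jagged1 cells and 141 and 63 in vector cells, and Lor, with 6 and 8 in Jagged1 cells and 18 and 9 in vector cells. Of the adipocyte markers in the table Cidec had 2 reads in Jagged1 2 and 0 elsewhere, and Plin1 was at 0. Of the 9 fibroblast markers 4 in Jagged1 1, 2 in Jagged1 2 and 7 in each vector library had at most 3 counts. Beside Col1a2, the most read were Col1a1, with 36 and 376 reads in Jagged1 cells and 16 and 24 in vector cells, and Pdgfra, with 166 and 93 in Jagged1 cells and 51 and 61 in vector cells. The part of these markers in the Krt14 and Krt7 values was not tested beyond leaving out Jagged1 2.

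Promoter windows of RefSeq (GRCm38.p6) were matched to 6 of the 10 keratins: Krt5, Krt14, Krt7, Krt8, Krt18 and Krt23. The 250 bases before the annotated start were searched on the gene strand for TATAAA and ATAAAA, forms of the TATA box that may overlap each other, and on both strands for GTGGGAA, the core of sites bound by RBPJ, the DNA-binding partner of Notch. ATAAAA was in the windows of Krt5, Krt7 and Krt23, and in 10.2% of all 32851 windows. GTGGGAA was in the window of Krt8 and in 5.42% of all windows, and TATAAA in none of the 6 and in 7.59% of all. RefSeq and GENCODE M21 place these starts differently: against GENCODE, the windows of Krt14 and Krt7 lie wholly inside the gene span, and those of Krt8, Krt18 and Krt23 enter the gene. That of Krt5 lies outside its gene. The type II genes Krt7, the most read of the 10, and Krt5, at or near 0, are shown because both hold ATAAAA (capitals). The match lies at the very end of the window in Krt7 and farther from the end in Krt5, so the places are unlike. The windows lie at chr15:101412153-101412402 (plus strand) for Krt7 and chr15:101712906-101713155 (minus strand) for Krt5. The window of Krt7 ends where its principal transcript begins, and earlier GENCODE transcripts of the gene start before it.
Krt7: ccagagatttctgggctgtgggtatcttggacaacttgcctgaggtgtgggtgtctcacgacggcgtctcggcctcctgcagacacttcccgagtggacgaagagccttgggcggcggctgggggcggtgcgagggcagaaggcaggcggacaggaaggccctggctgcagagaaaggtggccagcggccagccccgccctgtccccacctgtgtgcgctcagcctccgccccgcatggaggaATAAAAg
Krt5: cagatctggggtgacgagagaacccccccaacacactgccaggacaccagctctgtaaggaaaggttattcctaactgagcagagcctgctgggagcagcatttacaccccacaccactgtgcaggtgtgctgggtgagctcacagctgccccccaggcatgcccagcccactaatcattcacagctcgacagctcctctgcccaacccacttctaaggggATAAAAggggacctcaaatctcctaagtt
The matches describe these letters and say nothing of binding.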

How the data were processed

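Poly(A) RNA of PyMT-A cells was sequenced in 2 Jagged1 and 2 vector libraries, grouped by the virus named in the labels. Per the labels, the authors deposited unnormalized counts of reads for each gene name, made with STAR 2.6.0c and featureCounts 1.6.2 on mm10 (GRCm38), per the submitters' processing notes; no source used here gives the annotation or the strand and multi-mapping settings. Among the gene names 27 had been turned into dates and 2 names were repeated; each such row stayed a feature of its own.

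Genes were filtered (filterByExpr, minimum count 10), scaled by TMM and tested with the quasi-likelihood F test of edgeR 4.0.16 in R 4.3.3, without a block, with Benjamini-Hochberg adjustment over all 13299 tested genes. The SE is the absolute log2 fold change over the square root of F. Ratios were tested by exact permutation over libraries. The fit was tested on simulated data with less spread than these libraries, so that test does not measure the power of the fit here. Alternatives used DESeq2 1.42.0, limma 3.58.1 and other filters, scalings, lengths and left-out libraries. Lengths and transcripts came from GENCODE M21. Counting error limits precision least for the 4 abundant keratins and most for those at a few counts.

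The members and lists were chosen with earlier results of these data known. Besides the 10 keratins and Jag1, the text names the 3 most abundant members of each comparison list, any member past the threshold, and Trp63, Acta2, Epcam and Cdh1; other genes, and the comparisons said to be so, were chosen after their values were seen.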

Additional observations from a re-analysis of the deposited data

How the results depend on the processing

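Among the keratins with an adjusted p, 0 were called under the 11 alternatives to the fit: 10 of 10 had one without the filter on low counts, 4 with a minimum mean of 5 CPM, and 5 in each of the others. The number of genes called over the table moved from 1 to 48 with DESeq2, 169 without the filter on low counts and 17 with the replicate number as a block, and lay between 0 and 193 with 1 library left out. Without a library 1 arm holds a single sample, which is assumed to vary like the others. The replicate block gave Krt14 0.69 ± 0.11 (adjusted p = 0.087), Krt7 -0.52 ± 0.099 (0.136), Krt8 -0.12 ± 0.12 and Krt18 -0.0033 ± 0.11 (SE), and for the basal to luminal log2 ratio a mean difference of 0.97 ± 0.04 (SE, 2 differences). Deviations of Jagged1 1 and vector 1 from their line means correlated at r = 0.43 across genes, which are not independent; with 2 pairs this does not establish a pairing. The basal to luminal difference lay between 0.69 and 1.25 with each library left out. Its direction could not turn there, since the lines did not overlap. The difference was 0.75 with Krt5 and Krt14 over Krt8 and Krt18, and 0.87 per transcript length. As a mean of log2 counts, which weighs keratins of few reads like the abundant ones, it was 1.17 and the groups overlapped. That mean differed by 2.36 within number 1 and by -0.013 within number 2. Krt18, at 0.0025, was at -0.0027 with DESeq2, -0.0035 with limma-voom and -0.0022 without the filter, and with 1 library left out lay between -0.15 and 0.14; Krt8 lay between -0.45 and 0.19 and Krt7 between -0.93 and -0.11. The adjusted p of Jag1 was 0.24 without vector 1 and 0.153 without vector 2. Depth limits what can be said of the 6 keratins with few reads.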

Other observations

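Genes were also ranked by how closely their centred log2 CPM followed a keratin over the 4 libraries, as a Euclidean distance among 13298 genes. By the rule on the widest range, the member was Krt15 (range 3.67 on the log2 scale), and the nearest genes were Rassf9 (distance 0.462), Wisp2 (0.472) and Gng2 (0.504). Wisp2, a secreted protein of the CCN family, was at 13.1 and 20.4 CPM in Jagged1 cells and 1.19 and 5.70 CPM in vector cells.

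For Krt14 and Krt7, added after their values were seen, the nearest genes were Arrb1 (distance 0.215), Ranbp17 (0.257) and Gpr157 (0.264) for Krt14, and Rmi2 (0.0944), Schip1 (0.146) and Cmss1 (0.158) for Krt7. Arrb1, the gene of beta-arrestin 1, was at 4.55 and 1.88 CPM in Jagged1 cells and 2.25 and 1.06 CPM in vector cells. Within a distance of 0.25 lay 1 gene for Krt14 and 37 for Krt7. With 4 libraries such likeness is a description.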
